A study of Mus musculus with 48 samples.

Results

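The Klra genes encode the Ly49 receptors, and 10 of them, Klra17, Klra5, Klra6, Klra4, Klra8, Klra9, Klra7, Klra10, Klra3 and Klra1, lie in this order on the minus strand of mouse chromosome 6. Captured methylated DNA was examined from Klra17 to Klra1 with 5 kb added on either side (mm10 chr6:129826154-130391874, 565721 bp). This window held 38 of the 95882 regions counted in the series. A region was assigned to a gene that it overlapped or lay within 5 kb of, which gave 20 regions to a Klra gene and none to more than 1 of them. Of the other 18 regions, 5 lay within 5 kb of the pseudogenes Klra11-ps, Klra13-ps or Klra14-ps, and 13 near neither. The regions gave a level for 9 of the 10 genes. Klra6 had no region within 5 kb, and the nearest was 15244 bp away.

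Ly49 receptors are lectin-like proteins in the membrane of natural killer cells and some other lymphocytes, and most of them bind major histocompatibility complex (MHC) class I molecules on the cells they meet. Inhibitory members carry a tyrosine motif that recruits phosphatases, while activating members lack it and signal through the adaptor Tyrobp (DAP12). Each natural killer cell transcribes only some of the genes, and DNA methylation near their start sites is known to go with silent alleles.

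Methylated fragments were captured with a methyl-CpG-binding domain and sequenced from 7 germ-free mice (GermFree) and 5 conventionalised mice (ConvR). Every mouse gave 1 library from the duodenum, the jejunum, the ileum and the colon, 48 in all. Strain, age, sex, housing and cell preparation were not given in the sources used here. Replicates are separate mice, and 5 of the codes in the sample titles are each shared by 1 GermFree and 1 ConvR mouse. Levels are TMM-normalised CPM (read counts in regions, scaled to a common library size). Capture rises with methylation and with the number of copies of a sequence, and in whole tissue a different share of a cell type and a different state of its DNA cannot be told apart. Capture does not measure RNA, so the tissue label was not checked against the expression of marker genes. The Klra genes are similar copies, and with read placement among them not given in the sources used here, values of single genes are uncertain.

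Library totals ran between 1230157 and 2902073 reads in GermFree and between 1007560 and 3033782 in ConvR. The Klra window took 1911 to 5325 of these reads in GermFree libraries and 895 to 3126 in ConvR libraries. With the sections of a mouse summed, Klra9 held at least 976 reads in every mouse and Klra5, the gene with fewest, 43 to 91.

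Promoter sequences (250 bases before to 50 after a start site, RefSeq, assembly GRCm38.p6, whose coordinates are those of mm10) were found for 10 of the 10 genes, 12 promoters in all. The 12 promoters held 0 to 4 CpG, the motif CG, which reads the same on both strands, against a median of 7 over 32851 promoters of the same length. At least 1 CG stood in 10 of the 12, and in 94.6% of all promoters. A count of 4 or fewer, the Klra range, was found in 38% of all promoters. Of the 12, 5 promoters of 4 genes (Klra4, Klra9, Klra10 and the 2 start sites of Klra7) overlapped a captured region, and 8.57% of all promoters did. The sequences that follow belong to both activating genes, to the most alike inhibitory genes, and to Klra7, whose second start site has the most CG inside a captured region. They are written in the direction of transcription with each CG in capitals.
Klra4 (chr6:130067222-130067521, minus strand): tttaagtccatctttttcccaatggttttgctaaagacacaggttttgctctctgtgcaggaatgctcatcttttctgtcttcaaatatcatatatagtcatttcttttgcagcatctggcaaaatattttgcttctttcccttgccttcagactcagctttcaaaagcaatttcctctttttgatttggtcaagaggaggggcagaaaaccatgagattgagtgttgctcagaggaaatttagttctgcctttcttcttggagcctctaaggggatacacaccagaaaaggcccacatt
Klra8 (chr6:130129849-130130148, minus strand): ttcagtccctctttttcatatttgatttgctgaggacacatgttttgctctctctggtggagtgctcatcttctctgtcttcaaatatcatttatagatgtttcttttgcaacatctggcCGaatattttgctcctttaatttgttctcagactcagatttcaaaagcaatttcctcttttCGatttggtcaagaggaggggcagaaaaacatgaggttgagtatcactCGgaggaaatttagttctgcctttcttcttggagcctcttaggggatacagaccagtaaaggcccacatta
Klra9 (chr6:130193063-130193362, minus strand): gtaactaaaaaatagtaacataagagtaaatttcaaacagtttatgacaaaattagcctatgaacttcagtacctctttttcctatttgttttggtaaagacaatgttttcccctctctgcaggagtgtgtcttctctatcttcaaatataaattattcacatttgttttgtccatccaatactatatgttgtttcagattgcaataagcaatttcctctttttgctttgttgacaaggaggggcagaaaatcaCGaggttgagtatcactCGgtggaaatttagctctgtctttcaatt
Klra3 (chr6:130337577-130337876, minus strand): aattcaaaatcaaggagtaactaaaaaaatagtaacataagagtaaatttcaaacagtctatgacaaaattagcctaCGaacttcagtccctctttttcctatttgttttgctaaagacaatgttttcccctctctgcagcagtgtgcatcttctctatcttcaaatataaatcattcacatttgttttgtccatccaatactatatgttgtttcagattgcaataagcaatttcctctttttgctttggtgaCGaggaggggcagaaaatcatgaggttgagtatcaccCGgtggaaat
Klra7 (chr6:130231638-130231937, minus strand): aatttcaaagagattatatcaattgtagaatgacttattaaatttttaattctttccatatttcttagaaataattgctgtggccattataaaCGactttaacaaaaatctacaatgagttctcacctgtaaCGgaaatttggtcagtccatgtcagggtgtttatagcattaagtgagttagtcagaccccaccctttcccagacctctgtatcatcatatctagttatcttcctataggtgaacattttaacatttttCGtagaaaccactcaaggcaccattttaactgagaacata
Klra4 and Klra8 were identical at 86.0% of aligned promoter bases, with 37 bases as the longest exact run. Klra9 and Klra3 were identical at 85.0%, with an exact run of 75 bases. Over the 45 pairs of genes the median identity was 52.6% and the range 44.9% to 86.0%. Each gene entered these pairs with 1 promoter, and the second start sites of Klra7 (the one printed above) and of Klra8 were left out. Among the 45 pairs no exact run reached the full read length of 100 bases. The Klra4 promoter held no CG and lay wholly inside a captured region. The Klra8 promoter held 3 and lay 669 bp from the nearest region, and that of Klra3 held 3 and lay 4987 bp away.

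The first question was whether captured DNA at the Klra genes differed between GermFree and ConvR mice, the contrast of the study. With the 4 sections of a mouse summed, 8 of the 9 genes rose in GermFree mice, by log2 differences of 0.46 to 1.08, and none fell. Over all genes tested, 0.466% passed in this direction (edgeR quasi-likelihood test, Benjamini-Hochberg adjusted p under 0.05 over 30232 genes). The median log2 difference was 0.76 over the 9 genes and -0.0076 over all genes. The gene that did not pass was Klra5. In all 8 genes that rose, the lowest GermFree mouse lay above the highest ConvR mouse, which held for 0.361% of all genes.

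Klra4 and Klra8 encode the activating receptors Ly49D and Ly49H, the second of which recognises a protein of mouse cytomegalovirus. Klra4 had 159.5, 198 and 222 CPM as the lowest, median and highest of the GermFree mice, against 94.3, 104, 67.6, 113 and 85.4 CPM in ConvR mice 1 to 5. Klra8 had 122, 162 and 166 CPM in GermFree mice by the same measures, against 76.9, 82.1, 53.5, 77.1 and 62.7 CPM in ConvR mice 1 to 5. All GermFree mice were high and all ConvR mice low at both genes, with no overlap. The difference on the log2 scale was 1.05 ± 0.08 (edgeR SE) at Klra4 and 1.08 ± 0.09 at Klra8 (edgeR adjusted p = 1.14e-08 at both). These were 2.08-fold and 2.12-fold higher levels in GermFree mice.

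Klra9 (Ly49I), Klra3 (Ly49C), Klra7 (Ly49G), Klra1 (Ly49A) and Klra10 (Ly49J) are inhibitory receptors. Klra9 had 300.9, 396.5 and 416 CPM as the lowest, median and highest GermFree mouse, against 192, 203, 138, 205 and 159 CPM in ConvR mice 1 to 5. The log2 difference was 1.06 (SE 0.08, edgeR adjusted p = 1.14e-08), close in size to those of the activating genes. Klra7 had 176, 228 and 245 CPM in GermFree mice, against 139, 143, 94.6, 138 and 114 CPM in ConvR mice 1 to 5. Its log2 difference was 0.79 (SE 0.08, edgeR adjusted p = 8.81e-07).

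Klra1 had 174, 229 and 237 CPM as the lowest, median and highest GermFree mouse, against 134, 141, 96.4, 139.6 and 110.5 CPM in ConvR mice 1 to 5 (log2 0.76, SE 0.08, edgeR adjusted p = 2.12e-06). Klra10 had 34.8, 43.2 and 47.15 CPM in GermFree mice, against 29.8, 28.8, 21.3, 25.3 and 26.2 CPM in ConvR mice 1 to 5 (log2 0.66, SE 0.08, edgeR adjusted p = 6.63e-06). At both genes the groups were apart, Klra1 by a wider margin than Klra10. Klra3 had 27.2, 35.3 and 41.8 CPM in GermFree mice, against 23.2, 26.9, 17.1, 20.6 and 21.0 CPM in ConvR mice 1 to 5 (log2 0.64, SE 0.10, edgeR adjusted p = 2.31e-04). Here the highest ConvR mouse, at 26.9, came close to the lowest GermFree mouse, at 27.2.

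Klra17 and Klra5 lie at the other end of the window. Klra17 encodes Ly49Q, known from plasmacytoid dendritic and other myeloid cells rather than natural killer cells. It had 46.5, 50.1 and 59.0 CPM as the lowest, median and highest GermFree mouse, against 38.7, 36.5, 35.0, 37.8 and 39.9 CPM in ConvR mice 1 to 5. The difference was smaller than at the genes above, with a log2 of 0.46 (SE 0.06, edgeR adjusted p = 1.63e-05), and the groups did not overlap. Klra5 encodes Ly49E, an inhibitory receptor known from fetal natural killer cells and intraepithelial lymphocytes. Its single small region had 7.89, 9.004 and 10.1 CPM in GermFree mice, against 8.05, 7.38, 6.78, 5.84 and 7.51 CPM in ConvR mice 1 to 5. The log2 difference was 0.35 (SE 0.10) and did not pass (edgeR adjusted p = 0.263). All ConvR mice lay below 6 of the 7 GermFree mice.

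**Figure D1:**
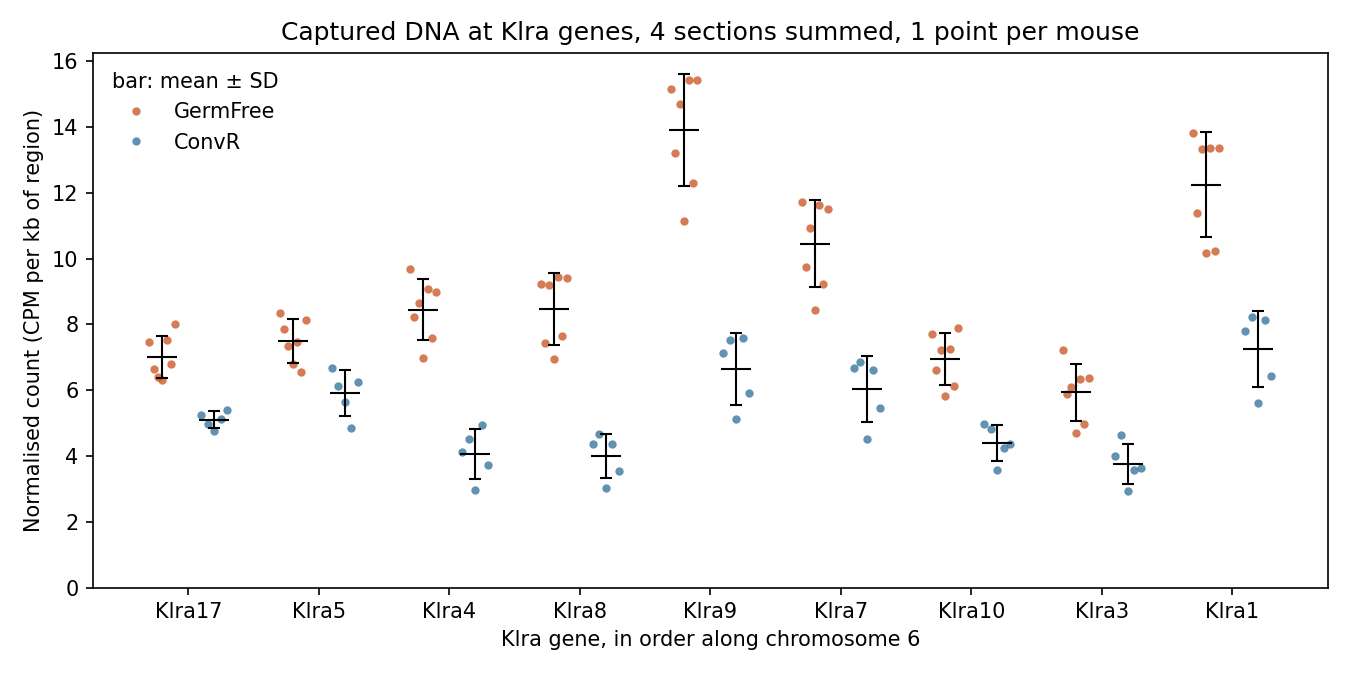
Captured DNA (CPM per kb of region) at the 9 Klra genes with a region, 4 sections summed, with 1 point per mouse and bars for mean and SD, GermFree left of ConvR. The GermFree points lie above all ConvR points at every gene except Klra5.

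Per kb of region, the order of levels differed between the models. In GermFree mice Klra9 was highest with 13.9 ± 1.70 CPM per kb (SD, n = 7), followed by Klra1 with 12.25 ± 1.60 and Klra7 with 10.5 ± 1.32. Next came Klra8 and Klra4 with 8.47 ± 1.08 and 8.45 ± 0.94, Klra5 with 7.50 ± 0.67, Klra17 with 7.03 ± 0.64, Klra10 with 6.95 ± 0.78 and Klra3 with 5.94 ± 0.86. In ConvR mice (n = 5) the order was Klra1 with 7.25 ± 1.16 CPM per kb, Klra9 with 6.65 ± 1.10, Klra7 with 6.03 ± 1.001, Klra5 with 5.91 ± 0.70, Klra17 with 5.10 ± 0.26, Klra10 with 4.40 ± 0.55, Klra4 with 4.05 ± 0.76, Klra8 with 4.00 ± 0.68 and Klra3 with 3.76 ± 0.62. The activating genes Klra4 and Klra8 thus stood at ranks 5 and 4 of 9 in GermFree mice and at ranks 7 and 8 in ConvR mice. In both models the range of the mice at every gene overlapped with that at the next gene in the order. These ranges leave out that all genes were measured in the same mice. Mouse by mouse, Klra9 lay above Klra1 in every GermFree mouse, and Klra1 above Klra9 in every ConvR mouse. Differences between ranks were not tested.

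In the sums the same mice were lowest at most genes. GermFree mouse 4 was the lowest of its model at 8 of the 9 genes, and ConvR mouse 3 was the lowest of its model at 8 of 9. GermFree mouse 1 was the highest of its model at 5 of 9. The highest ConvR place varied more, with mice 1, 2, 4 and 5 holding it at 2, 4, 2 and 1 genes. In the colon alone, GermFree mouse 4 had the highest level of its model at Klra4 (254.7 CPM) and Klra1 (290.1 CPM). Within the 5 title codes that hold 1 mouse of each model, the GermFree mouse was above the ConvR mouse at all 9 genes in 5 of 5 codes. These within-code log2 differences had a median of 1.02 at Klra4 (0.50 to 1.55), 1.06 at Klra9 (0.55 to 1.53), 0.43 at Klra17 (0.30 to 0.50) and 0.36 at Klra5 (0.07 to 0.48). The share of all genes higher in the GermFree mouse in 5 of 5 codes was not computed. Without ConvR mice 1 and 3, 8 of 9 genes passed, with log2 differences of 0.95 at Klra4 and 0.99 at Klra9. Over all genes 127 then passed in either direction, against 150 with every mouse. ConvR mice 1 and 3 were left out for their levels at other loci of the series, which are not given here.

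The levels of the Klra window moved with those of another part of the genome. All libraries held reads on chromosome Y, and the share of a mouse's reads there was 1.498% to 1.92% in GermFree mice and 1.27% to 1.71% in ConvR mice, with overlap. GermFree mouse 4 and ConvR mouse 3 had the lowest share of their models, as they had at most Klra genes. For every 1000 reads on chromosome Y the window held 96.9 to 105.6 reads in GermFree mice, against 60.4 to 64.6 in ConvR mice, so the mice of a model lay closer together on this measure and the models stayed apart. With the share of chromosome Y as a covariate, an alternative chosen after these values were seen, 8 of 9 genes again passed in the sums. Over all genes 151 passed in either direction with it, against 150 without it. The log2 differences were then smaller, 0.87 at Klra4, 0.89 at Klra8, 0.87 at Klra9, 0.60 at Klra7 and 0.57 at Klra1. The share of reads on chromosome X was also higher in GermFree mice in the mean, 0.84% ± 0.19 against 0.497% ± 0.0571 in ConvR mice (SD, n = 7 and 5), with GermFree mouse 3 at 0.544% beside the highest ConvR mouse at 0.548%. The part of these shares in the Klra differences was tested no further.

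The standard errors above, and those within sections below, are edgeR's and draw on the spread of all genes. Computed from the Klra genes' own mice, the standard error of the mean log2 difference was 0.921 to 1.70 times edgeR's in the sums, with a median of 1.58. Within sections the median ratio was 1.65 in the duodenum, 1.51 in the jejunum, 1.49 in the ileum and 1.93 in the colon. The colon had the widest range, 0.738 to 2.11. At most genes edgeR's standard errors and adjusted p thus understate the genes' own spread. In the sums, an exact two-sided permutation test of single genes over 792 relabellings of the mice gave an unadjusted p of 0.00126, the smallest it can give, at 7 genes. It gave 0.00253 at Klra3 and 0.00379 at Klra5. The share of all genes with such values was not computed for this test.

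Region by region, 31 of the 38 regions of the window were higher in GermFree mice with the sections summed and none was lower, while 0.431% of the 95882 regions passed upward. The median log2 difference was 0.72 over the 38 regions and -0.00145 over all. The lowest GermFree mouse exceeded the highest ConvR mouse at 27 of the 38, and at 0.347% of all regions. Of the regions assigned to a Klra gene 18 of 20 passed, of those near a pseudogene alone 5 of 5, and of the remaining regions 8 of 13. The higher capture was thus found between the genes as well as over them.

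The broadest region (chr6:130187367-130211212, 23846 bp) covered 7008 bp of Klra9 at its 5′ end, and most of it lay beyond the gene on the side of Klra7. Its level was 359 ± 43.8 CPM in GermFree mice, against 171 ± 27.4 CPM in ConvR mice (SD, n = 7 and 5). The log2 difference was 1.07 (SE 0.10) with an edgeR adjusted p of 1.44e-10, and the region passed in 4 of 4 sections. The region with most reads at Klra4 (chr6:130042204-130053893), inside the gene and past its 3′ end, gave a log2 of 1.11 (SE 0.09, edgeR adjusted p = 5.46e-12). Its counterpart at Klra8 (chr6:130109734-130126450) gave 142.5 ± 18.3 CPM in GermFree and 67.5 ± 11.2 CPM in ConvR mice, with a log2 value of 1.08 (SE 0.09, edgeR adjusted p = 1.44e-11). Both passed in 4 of 4 sections, and both are far wider than the series' median region of 1208 bp.

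Within Klra7, differences varied by position. Its 4 regions had log2 differences of 0.65 to 1.17, and the largest was the one toward Klra9 (chr6:130214425-130219298). The region with most reads, which holds both Klra7 promoters (chr6:130231045-130240946), gave 97.3 ± 12.4 CPM in GermFree and 62.1 ± 10.8 in ConvR mice (log2 0.65, SE 0.09, edgeR adjusted p = 1.44e-06). At Klra1 the 3 regions had log2 differences of 0.67 to 0.85, the largest at chr6:130364074-130369924 with 98.6 ± 13.7 CPM in GermFree and 54.7 ± 8.66 CPM in ConvR mice (edgeR adjusted p = 4.48e-09). Among the 9 genes' leading regions this one was the densest, with 16.85 CPM per kb in GermFree and 9.35 CPM per kb in ConvR mice.

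At Klra10, 2 of 3 regions passed, and the one past its 3′ end (chr6:130266533-130268863) did not (log2 0.42, edgeR adjusted p = 0.0606). Its leading region (chr6:130282044-130285043), which covers 135 bp of the promoter, had a log2 of 0.72 (SE 0.08, edgeR adjusted p = 4.47e-08). At Klra3 the leading region (chr6:130326933-130332068) gave 28.0 ± 4.65 CPM in GermFree and 17.8 ± 3.13 CPM in ConvR mice (log2 0.63, SE 0.10, edgeR adjusted p = 1.58e-05). The only region of Klra17 (chr6:129848474-129855839), inside the gene, gave the gene's level above. That of Klra5 (chr6:129897300-129898503) lay within 5 kb of the gene's 3′ end and not over it. Exons and introns were not told apart, since the gene table used here gives gene ends alone.

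Along the window the 7 regions that did not pass were unevenly placed. Of the 6 regions nearest the Klra17 end, 1 passed, and their median log2 difference was 0.23. Of the 32 regions from there to Klra1, 30 passed, with a median of 0.84. The border was drawn after the values were seen and is a description. Outside the window, the nearest region beyond Klra17 had a log2 difference of 0.33 and the nearest beyond Klra1 one of -0.20, and neither passed. The second beyond Klra1 (chr6:130503187-130505322) was higher in GermFree than in ConvR mice by a log2 of 0.51 (SE 0.10, edgeR adjusted p = 0.00280).

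**Figure D2:**
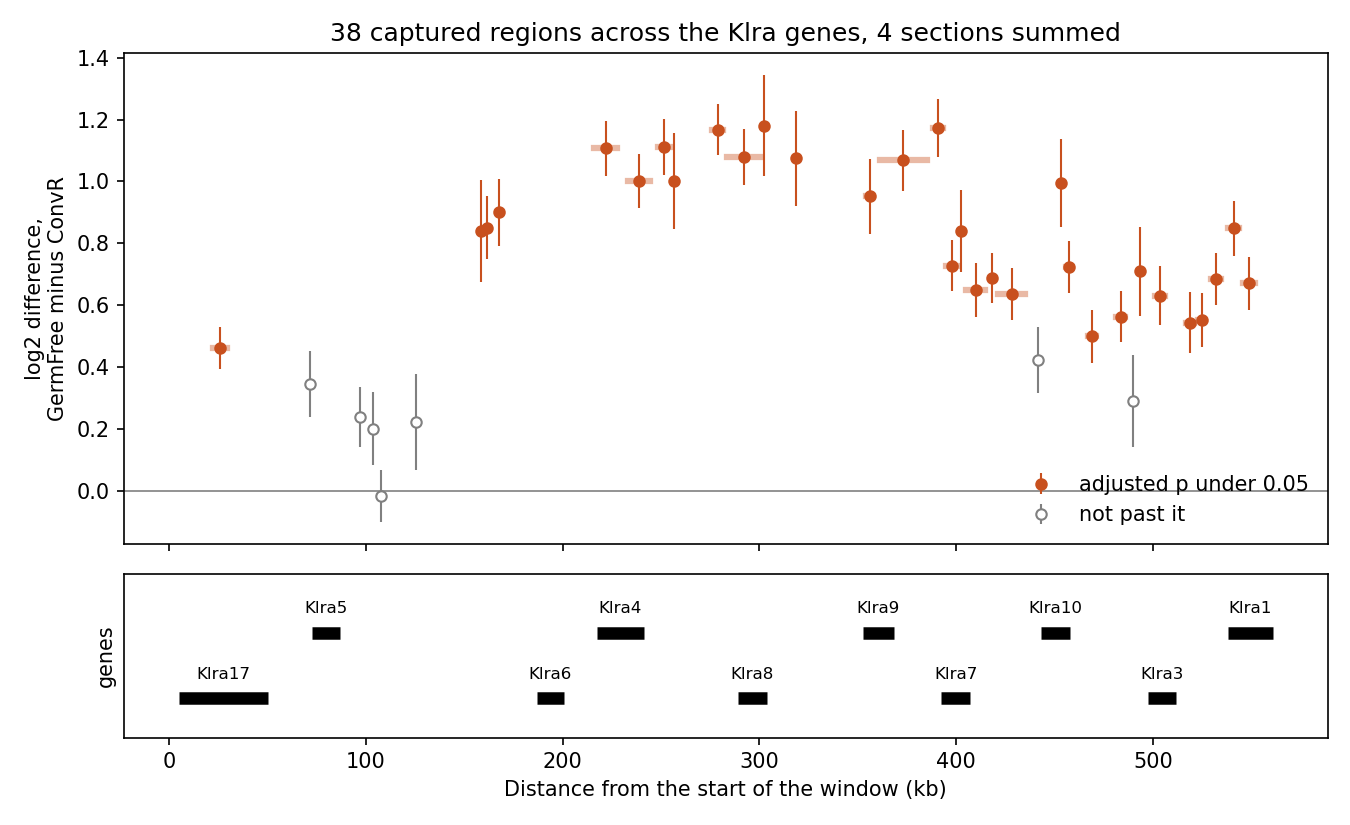
The log2 difference, GermFree minus ConvR, of the 38 captured regions (top; points with SE, pale bars for the extent of each region) against distance from the start of the window in kb, with the 10 gene bodies (bottom). Filled points are the 31 regions past an adjusted p of 0.05, and 4 of the 7 open points lie between Klra5 and Klra6.

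The same comparison within each section asked where along the intestine the difference was found. Of the 9 genes, 7 rose in the duodenum (background 0.413% of genes), 6 in the jejunum (background 0.28%), 7 in the ileum (background 0.296%) and 8 in the colon (background 0.522%). None fell in any section (edgeR). The exact permutation test of single genes gave an unadjusted p under 0.05 at 8 genes in the duodenum, 6 in the jejunum, 9 in the ileum and 8 in the colon. For this test the share of all genes at that level was not computed. By regions, 25 of 34 tested passed in the duodenum (background 0.423% of regions), 12 of 38 in the jejunum (0.304%), 21 of 36 in the ileum (0.316%) and 27 of 38 in the colon (0.513%). With DESeq2 the ileum count was 10, and it was also 10 with a replicate block or with the title code as a block. With the chromosome Y covariate, 15 regions passed in the duodenum, 20 in the jejunum, 14 in the ileum and 17 in the colon. Klra genes that passed numbered 6, 6, 5 and 6 in the same order. Over all regions, calls in either direction went from 349, 281, 312 and 402 to 231, 319, 293 and 236 with this covariate. Over all genes they went from 118, 99, 88 and 150 to 95, 118, 115 and 106. In 10 regions the call was made in all 4 sections, in 11 in 3, in 3 in 2, in 6 in 1, and in 8 in none. A region not tested in a section counts there as not called, and the share over all regions was not computed for these counts.

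Klra4, Klra8 and Klra9 passed in all 4 sections with no overlap between the groups of mice in any of them. The share of all genes without overlap was computed for the sums alone and not within sections. Klra4 averaged 187.5 ± 34.4 CPM in GermFree and 77.55 ± 26.5 CPM in ConvR duodenum (log2 difference 1.20, SE 0.13, edgeR adjusted p = 1.86e-07). In the colon it averaged 232 ± 23.5 CPM in GermFree and 107 ± 26.7 CPM in ConvR mice (log2 1.14, SE 0.09, edgeR adjusted p = 1.51e-13). The ileum gave 1.04 (SE 0.11) and the jejunum 0.82 (SE 0.07). Klra9 had the same order of sections, with the duodenum highest at 1.21 (SE 0.11), while at Klra8 the ileum was highest at 1.22 (SE 0.13). In the jejunum both had their smallest difference, 0.84 (SE 0.08) at Klra8 and 0.82 (SE 0.06) at Klra9. With the chromosome Y covariate the jejunum was no longer the lowest at Klra4, Klra8 or Klra9. In gut order the 4 sections then gave 0.85, 0.91, 0.83 and 0.89 at Klra4. They gave 0.88, 0.92, 0.95 and 0.86 at Klra8, and 0.86, 0.90, 0.85 and 0.91 at Klra9.

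Klra7 and Klra1 also passed in all 4 sections, with the smallest differences in the jejunum, 0.53 (SE 0.07) at Klra7 and 0.41 (SE 0.08) at Klra1. With the chromosome Y covariate the jejunum stayed lowest at Klra1 (0.52), while at Klra7 the ileum was lowest (0.56, against 0.63 in the jejunum). Their groups overlapped in the jejunum and the ileum and were apart in the duodenum and colon. In the jejunum 6 of 7 GermFree mice at Klra7 and 5 of 7 at Klra1 lay above all ConvR mice, and in the ileum 6 of 7 at both. The Klra1 call in the jejunum was lost with DESeq2 (DESeq2 adjusted p = 1), and the exact permutation test gave an unadjusted p of 0.024. Klra10 passed in the duodenum (0.77), ileum (0.64) and colon (0.96), and not in the jejunum (log2 0.24, edgeR adjusted p = 0.874). Klra10 averaged 36.8 ± 5.49 CPM in GermFree and 30.8 ± 4.66 CPM in ConvR jejunum, against 51.9 ± 4.18 CPM in GermFree and 27.0 ± 6.67 CPM in ConvR colon. The jejunum groups overlapped and the colon groups did not.

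Klra3 passed in the duodenum (0.97, SE 0.19) and the colon (0.68, SE 0.12), with overlapping groups in every section. It did not pass in the ileum (log2 0.66, edgeR adjusted p = 0.0535) or the jejunum (log2 0.24, edgeR adjusted p = 0.919). Leaving out ConvR mouse 2, high in the ileum, gave 0.92 there (edgeR adjusted p = 0.00159), and leaving out GermFree mouse 4 gave 0.77 (edgeR adjusted p = 5.44e-04). Its duodenum call was lost without ConvR mice 1 and 3 (edgeR adjusted p = 0.0639), with DESeq2 (adjusted p = 0.0968) and with the title code as a block (edgeR adjusted p = 0.0883). Under the chromosome Y covariate neither the duodenum call (edgeR adjusted p = 0.131) nor the colon call (edgeR adjusted p = 0.0834) passed.

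Klra17 passed in the jejunum (0.49, SE 0.09), ileum (0.49, SE 0.10) and colon (0.47, SE 0.10), and not in the duodenum (0.39, edgeR adjusted p = 0.167), where it passed without GermFree mouse 6 (edgeR adjusted p = 0.00521) and with the mouse number as a replicate block (edgeR adjusted p = 0.0328). Without ConvR mice 1 and 3 the jejunum call of Klra17 was lost (edgeR adjusted p = 0.07749). The ileum calls of Klra17 and Klra10 were also lost without these mice (edgeR adjusted p = 0.07735 and 0.08742) and under several other alternatives. With the mouse number as a replicate block the edgeR adjusted p was 0.310 at Klra17 and 0.509 at Klra10, with the title code as a block 0.141 and 0.565, and with DESeq2 the adjusted p was 0.0598 and 0.0822. That of Klra10 had an edgeR adjusted p of 0.0376 and was lost when any mouse except GermFree mouse 4 and ConvR mouse 1 was left out, with adjusted p between 0.0577 and 0.170. That of Klra17 had an edgeR adjusted p of 0.0170 and was lost without GermFree mice 1, 5 or 6 or ConvR mice 3, 4 or 5, with adjusted p between 0.0610 and 0.162. Both ileum calls were lost with the chromosome Y covariate (edgeR adjusted p = 0.0573 at Klra17 and 0.151 at Klra10), as was the colon call of Klra17 (edgeR adjusted p = 0.134). Klra5 did not pass in any section, with log2 differences of 0.31 in the duodenum, 0.15 in the jejunum, 0.65 in the ileum and 0.27 in the colon.

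**Figure D3:**
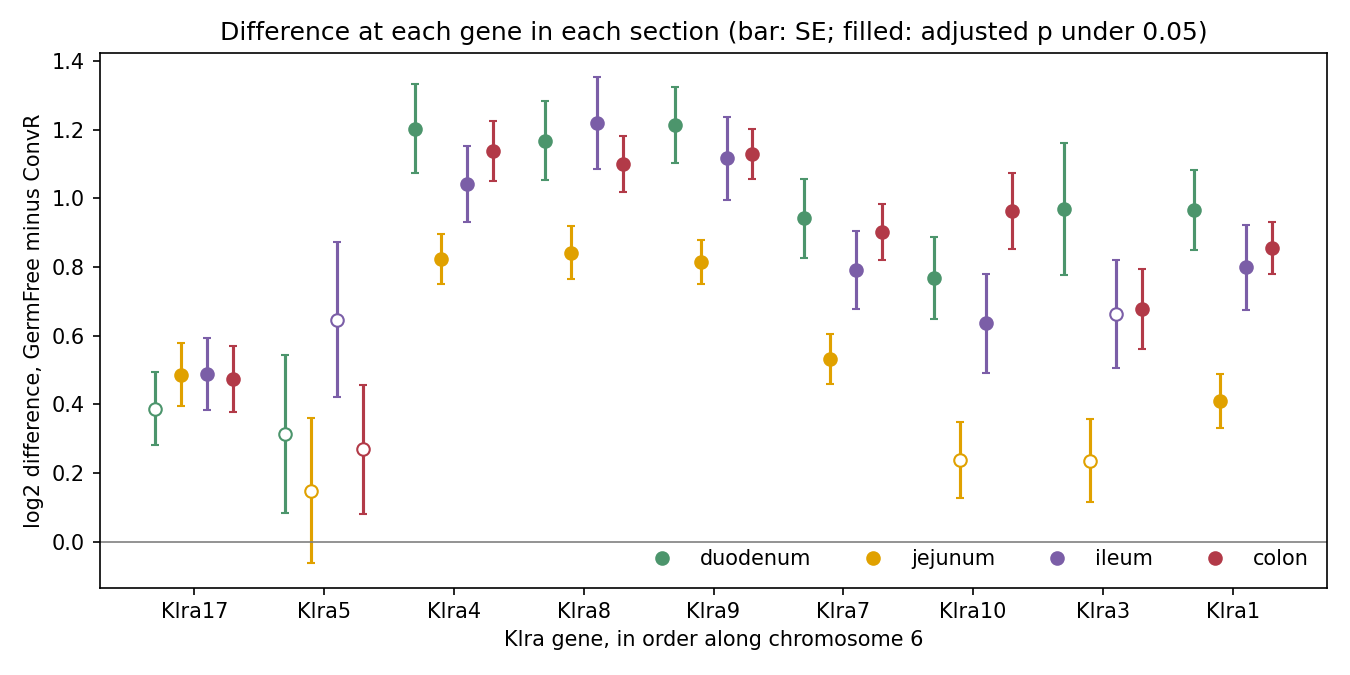
The log2 difference, GermFree minus ConvR, with SE (bars) at each of the 9 Klra genes in the duodenum, jejunum, ileum and colon. Filled points passed an adjusted p of 0.05, all points lie above 0, and the jejunum point is the lowest at every gene except Klra17.

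Without the chromosome Y covariate the jejunum gave smaller differences at most genes. Yet a joint test of the 3 interaction terms of model and section called none of the 9 genes (edgeR, 48 libraries, background 0%). At an unadjusted p under 0.05 it gave 3 of the 9 genes, with the smallest value at Klra10 (edgeR adjusted p = 0.908). The share of all genes at that unadjusted level was not computed. No second tool was run for this test. The difference is thus not shown to vary along the intestine.

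Levels were then compared between sections, averaged over both models. Colon levels were higher than duodenum levels at 6 of 9 genes (background 3.43% of genes in either direction) and higher than ileum levels at 7 of 9 (background 4.7%). The genes higher than in the duodenum were Klra4, Klra8, Klra9, Klra7, Klra3 and Klra1, by log2 differences of 0.31 to 0.46. Klra10 joined them against the ileum, where the range was 0.34 to 0.46. Klra1 gave 0.41 against each (SE 0.09 for both, edgeR adjusted p = 0.00754 against the duodenum and 0.00423 against the ileum).

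None of the 9 genes passed between jejunum and duodenum (background 0%), ileum and duodenum (background 0.00992%), ileum and jejunum (background 0%) or colon and jejunum (background 0.00331%) with edgeR. At an unadjusted p under 0.05 these contrasts gave 1, 0, 1 and 6 of 9 genes in the same order, and no second tool was run. The share of all genes at that level was not computed for these or the later contrasts between sections. The 4 sections of a mouse are paired by the animal. With the mouse as a replicate block the colon was higher than the jejunum at 5 of 9 genes (background 1.43%), and the counts against the duodenum and the ileum stayed at 6 (background 5.55%) and 7 (background 6.85%). The counts without the block depended on single mice. Against the duodenum, 2 genes passed without ConvR mouse 1, 1 without ConvR mouse 4, 0 without ConvR mouse 5 and 1 without GermFree mouse 6. Against the ileum, 4 passed without ConvR mouse 2, 3 without ConvR mouse 5 and 4 without GermFree mouse 4. Against the jejunum, 3 passed without ConvR mouse 3.

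The colon also had more reads on chromosome Y, with a share of 2.03% ± 0.12 in GermFree and 1.77% ± 0.30 in ConvR colon, against 1.71% ± 0.25 in GermFree and 1.42% ± 0.22 in ConvR duodenum. Within a mouse, the chromosome Y share was higher in the colon than in the duodenum in 7 of 7 GermFree and 5 of 5 ConvR mice. With this share as a covariate none of the 9 genes passed between the colon and the duodenum (background 0%), the jejunum (background 0.0132%) or the ileum (background 0.0198%) with edgeR, so calls fell away over all genes as well as at Klra, and the log2 differences lay between -0.07 and 0.10 at the genes called without it. At an unadjusted p under 0.05 this gave 0 genes against the duodenum, 1 against the jejunum and 0 against the ileum, and no second tool was run. Per 1000 reads on chromosome Y the window held 101.2 ± 3.75 reads in GermFree colon and 100.2 ± 3.63 in GermFree duodenum (SD, n = 7), and 62.8 ± 2.54 reads in ConvR colon and 60.8 ± 3.65 in ConvR duodenum (SD, n = 5).

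Within 1 model the colon counts differed. In GermFree mice alone, edgeR called 7 of 9 genes against the ileum (background 3.44%), 7 against the jejunum (background 2.89%) and 0 against the duodenum (background 1.18%), where 8 genes had an unadjusted p under 0.05. In ConvR mice alone it called 0 Klra genes against each section, where 0% of all genes passed too, with 6 genes at an unadjusted p under 0.05 against the duodenum, 0 against the jejunum and 6 against the ileum. DESeq2 was not run on these contrasts, and the share of all genes at that unadjusted level was not computed.

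The sum over the 38 regions shows the same values by mouse. It averaged 1725 ± 316 CPM in GermFree duodenum, 1619 ± 223 in jejunum, 1626 ± 289 in ileum and 2099 ± 141 in colon (SD, n = 7). In ConvR mice it averaged 856 ± 174, 1077 ± 124, 884 ± 186 and 1120 ± 207 CPM in the same order (SD, n = 5). The groups did not overlap in the duodenum, jejunum and colon. In the ileum GermFree mouse 4, at 1025 CPM, lay below ConvR mouse 1 at 1036 CPM, and the other 6 GermFree mice lay above all ConvR mice. Per 1000 reads on chromosome Y the ileum groups did not overlap, with 92.2 to 106.4 reads in GermFree and 57.5 to 64.7 reads in ConvR mice. Within a mouse, the colon sum exceeded that of the duodenum, jejunum and ileum in 7 of 7 GermFree mice each. In ConvR mice it exceeded the duodenum and ileum in 5 of 5 and the jejunum in 3 of 5. Per 1000 reads on chromosome Y, the colon was higher in 4 of 7 GermFree mice against each of the other sections. On that measure it was higher in 4 of 5 ConvR mice against the duodenum, 1 of 5 against the jejunum and 3 of 5 against the ileum. The share of all regions or genes with such counts was not computed.

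**Figure D4:**
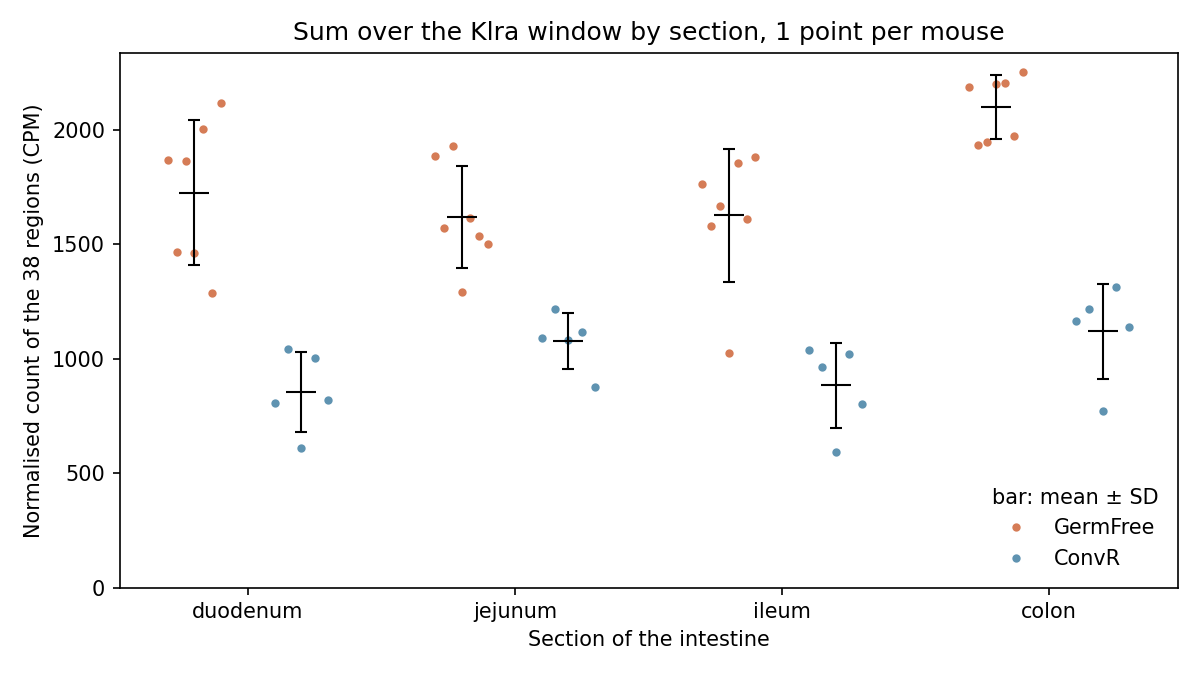
Normalised count of the 38 regions of the Klra window (CPM) in each section, with 1 point per mouse and bars for mean and SD, GermFree left of ConvR. The groups overlap in the ileum alone, where GermFree mouse 4 stands at 1025 CPM.

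Genes of the same pathway were counted on the sums. Of 32 other lectin receptor genes of the natural killer complex, 12 had regions and 2 rose, with a median log2 difference of 0.064 over the 12. These were the pseudogenes Klra14-ps (log2 1.08, SE 0.15, edgeR adjusted p = 9.47e-05) and Klra13-ps (0.54, SE 0.08, edgeR adjusted p = 1.79e-04), both inside the window. An unadjusted edgeR p under 0.05 was found at 4 of the 12, both pseudogenes among them, and at 7.87% of all genes. None of 14 measured MHC class I genes and partners, the ligands of Ly49 receptors, passed in either direction with edgeR or DESeq2, against 0.496% of all genes with edgeR, and 2 had an unadjusted p under 0.05, as 7.87% of all genes did. Within sections none of 13 passed with edgeR either, and DESeq2 was not counted for lists there. At an unadjusted p under 0.05 were 6 of 13 in the duodenum (8.15% of all genes), 1 in the jejunum (5.44%), 0 in the ileum (6.05%) and 7 in the colon (8.73%), with median log2 differences of 0.18, -0.11, -0.029 and 0.16 in gut order. None of 22 receptor signalling genes passed with either tool, and 1 had an unadjusted p under 0.05. Tyrobp and Hcst, the adaptors of activating receptors, share their regions and gave a log2 of -0.21 (edgeR adjusted p = 0.718).

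None of 16 transcription factors of natural killer cells passed with either tool, with 1 at an unadjusted p under 0.05. The same held for the markers of cell types. With edgeR and with DESeq2, 0 of 11 natural killer, 0 of 9 T cell, 0 of 9 B cell, 0 of 8 myeloid, 0 of 10 epithelial and 0 of 10 stromal or muscle markers passed. Of these, 1 epithelial and 1 stromal or muscle marker had an unadjusted p under 0.05. The medians of these 6 marker lists lay between -0.036 and 0.019, against 0.76 over the Klra genes. These are differences in captured DNA at the marker genes and not shares of cells, and their part in the Klra differences was not tested.

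The 5 genes most like the Klra sum over the 8 groups of model and section were sought among 17226 genes, by the root mean square difference of centred log2 CPM. They were Ehmt1 on chromosome 2 (0.049), Cr2 on chromosome 1 (0.052), Cacna1b on chromosome 2 (0.055), Vmn2r-ps1 on chromosome 1 (0.067) and Mid1-ps1 on chromosome Y (0.076). Their own log2 differences, GermFree minus ConvR, were 0.88, 0.75, 0.92, 0.74 and 0.80.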

How the data were processed

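Per the labels' protocols, sheared intestinal DNA was enriched with the MethylMiner kit and sequenced as 100-bp single-end reads. Per the submitters' processing notes, Trim Galore 0.3.7, cutadapt 1.4.2, MACS2 and featureCounts were used with mm10. Aligner, duplicate handling, placement of reads that match several copies and pooling for peak calling were not given in the sources used here. Every region is named for GermFree, and if peaks were called on those libraries alone, regions with more capture in ConvR mice are under-represented. The deposited count table holds the authors' raw whole-number counts per region, and the deposited peak list gives positions and the authors' own score per region, which was not used.

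Regions were matched to a RefSeq gene table (GRCm38.p6), and counts of all regions of a gene within 5 kb were summed. Every count was tested in R 4.3.3 by edgeR 4.0.16 (normalised by TMM, default filter, trended dispersion, quasi-likelihood F-test, Benjamini-Hochberg adjustment over all regions or genes, threshold 0.05), with factors from the table of all regions. GermFree and ConvR mice were compared on the sum of the 4 libraries of a mouse and within each section. Sections were compared over 48 libraries without a term for the mouse, and again with it, since each mouse gave 4 sections. The pipeline was first tested on simulated data. Alternatives were DESeq2 1.42.0, other scalings, no filter, blocks and leaving out mice. After the data were seen, an exact permutation test on log2 CPM was added, as was a covariate for the log2 share of reads on chromosome Y. Python 3.11.15, pandas 2.3.3, NumPy 2.4.6, Biopython 1.88 and Matplotlib 3.10.9 were used for levels, promoters and figures.

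The named genes were all 10 members, the region with the highest mean CPM of each, the regions that did not pass, every gene of the other lists that passed, and the 5 most alike genes outside the chromosome 6 neighbourhood that are not predicted genes. Second regions of Klra7, Klra1 and Klra10 and regions outside the window were chosen after their values were seen. The members and the lists were chosen with earlier results of these data known. Library totals had a median of 2122529 reads, and intervals cover neither amplification nor read placement.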

Additional observations from a re-analysis of the deposited data

Results flagged for a closer look

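In 6 of 100 groups of mice examined, at single genes or the window sum, 1 mouse lay far from the rest, and chance alone flags about 1 in 20 groups. GermFree mouse 4 was low in the ileum at Klra4 with 111.3 CPM, against 178 to 210.2 CPM in the other 6 GermFree mice. It was also low there at Klra9 with 211.3 CPM, against 336.5 to 402 CPM, and in the window sum with 1025 CPM, against 1579 to 1882 CPM. These 3 values come from the same library and share reads, and that library's share of reads on chromosome Y, 1.15%, was the lowest of the GermFree ileum libraries. At Klra9 in the jejunum, ConvR mouse 5 had 148.1 CPM, below 202 to 218 CPM in the other 4 ConvR mice. At Klra7 in the colon, ConvR mouse 3 had 90.69 CPM, below 149 to 163.5 CPM in the others. At Klra3 in the ileum, ConvR mouse 2 had 28.64 CPM, above 15.0 to 17.6 CPM in the others.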

How the results depend on the processing

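With the sections summed, the count of Klra genes that rose stayed at 8 of 9 under every alternative, and the count of regions lay between 30 and 32 of 38. Of the single log2 differences under these alternatives, those between sections taken only at genes called there, 1757 kept their direction and side of the threshold, 85 lost it, 9 gained it and none turned round, the share of chromosome Y not counted among them. In the ileum the 21 regions became 10 with DESeq2, 10 with the mouse number as a replicate block and 10 with the title code as a block. With the share of chromosome Y as a covariate, added after the data were seen, the regions numbered 15 in the duodenum, 20 in the jejunum and 17 in the colon, where 25, 12 and 27 had passed. Over all regions, calls in either direction went from 349 to 231, from 281 to 319 and from 402 to 236 in these sections. The colon counts moved most. Against the jejunum 0 genes became 5 with the mouse as a replicate block and 7 in GermFree mice alone. Against the duodenum 6 became 0 in GermFree and 0 in ConvR mice alone, and against the ileum 7 became 0 in ConvR mice alone. The chromosome Y covariate gave 0 genes against the duodenum and 0 against the ileum. Below 0 were then Klra7 (log2 -0.030) and Klra9 (-0.056) against the duodenum, and Klra1 (-0.016), Klra4 (-0.0627), Klra7 (-0.070) and Klra9 (-0.021) against the ileum, none past the threshold. Leaving out 1 mouse in turn gave 0 to 7 genes against the duodenum, 0 to 3 against the jejunum and 3 to 7 against the ileum. The cause was not tested, except that 1 model alone leaves fewer mice. Mice 1 to 4 of both models share a number and a title code. Deviations of same-numbered mice correlated between -0.130 and 0.0652 over 5 numbers, and those of the code shared by GermFree mouse 6 and ConvR mouse 5 at 0.137, so neither label was read as a pairing. With the number as a block 8 of 9 genes and 32 regions passed in the sums. The blocks changed no other count by over 1.5 times. No scaling moved the median of all regions or genes by over 0.1 on the log2 scale. Small regions limit precision, as at Klra5.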
